A study of Mus musculus with 6 samples.

Results

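The endoplasmic reticulum (ER) folding genes described here are 32 named chaperones, folding enzymes, stress sensors and degradation factors, out of 26532 genes in the deposited table. They were chosen by name from a list of genes known for ER protein folding and the unfolded protein response. That choice was made with earlier results of these data known. All 32 were found in the table and tested. The cells were MEFs, fibroblasts cultured from mouse embryos, which the labels also call mesenchymal stem cells, and their RNA was sequenced in bulk. The ORAI2 group holds 3 libraries from cells given an adenovirus carrying ORAI2, with the genotype label ORAI2 Overexpression. The GFP group holds 3 libraries from cells whose adenovirus carried green fluorescent protein (GFP) instead, with the genotype label WT. Both groups carried an adenovirus, and both have osteogenic differentiation as treatment label. Age, promoter of the adenovirus, any added BMP9, culture time and whether libraries came from separate cultures are not given in the labels used here, so the p-values rest on a spread between libraries that could be technical alone.

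The ER is where secreted and membrane proteins enter the secretory pathway, fold and gain disulfide bonds and sugars. Its most abundant chaperones bind calcium, and the store of calcium in the ER lumen is refilled through store-operated calcium entry, in which ORAI proteins form the channel of the plasma membrane. When unfolded proteins gather in the lumen, the sensors IRE1, ATF6 and PERK start the unfolded protein response, which raises chaperones, folding enzymes and the machinery that moves misfolded proteins out for degradation. Cells that make bone matrix secrete much collagen, and collagen needs prolyl hydroxylation, prolyl isomerisation and disulfide bonding in the ER.

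Library totals ranged between 18526884 and 18844436 counts, and between 19761 and 20038 genes had a count. Orai2 (Entrez 269717), the gene carried by the virus, stood at 3658, 2836 and 2437 CPM (read counts scaled to a common library total) in the ORAI2 libraries and at 52.7, 48.9 and 48.9 CPM in the GFP libraries. Its log2 fold change was 5.89 with a standard error (SE) of 0.13, or 59.2-fold (edgeR, adjusted p = 7.02e-11). Fibroblast and mesenchymal markers were present in both groups, with a summed level of 1318 ± 50.8 CPM in ORAI2 and 1638 ± 32.5 CPM in GFP libraries (SD, n = 3 each). Of 10 such markers tested, Cd44 rose, Vim, Pdgfra, Pdgfrb, S100a4, Dcn, Lum, Eng and Ly6a fell and Nt5e did not pass the test, while Thy1 had at most 3 counts in any library. Markers of other cells also differed between the groups. The macrophage list summed to between 26.7 and 35.9 CPM in ORAI2 and between 51.98 and 55.7 CPM in GFP libraries. Of its 3 tested genes, Mpeg1 and Cd14 were lower and Cd68 did not pass at a log2 fold change of -0.24. Ptprc and Itgam had at most 2 counts, Csf1r at most 4 and Lyz2 at most 8, and Adgre1 was not matched. The endothelial list summed to between 22.1 and 23.3 CPM in ORAI2 and between 11.8 and 15.1 CPM in GFP libraries, with Vwf and Kdr higher and Emcn at 0. The epithelial list summed to between 4.21 and 5.12 CPM in ORAI2 and between 2.80 and 3.74 CPM in GFP libraries, with Grhl2 higher, Krt18 not passing at a log2 fold change of -0.23 and Epcam at 0. The neural list summed to between 164 and 175 CPM in ORAI2 and between 132 and 144 CPM in GFP libraries, with Nes higher and Mbp lower. The part of these markers in the results on the folding genes was not tested, and in such bulk samples fewer cells of a type and less RNA per cell cannot be told apart.

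Among the 32 folding genes, 2 rose in ORAI2 cells, 14 fell and 16 did not pass the test (edgeR quasi-likelihood F-test, Benjamini-Hochberg adjusted p under 0.05 over all genes). The genes that rose were Dnajb9 and Ern1, and those that fell were most disulfide isomerases, Ppib, Fkbp10, Sec61b, Xbp1 and most degradation factors. These 16 called genes of 32 stand beside 42.9% called among all 13764 genes tested, so the overall share was close to the background. By direction, 6.25% of members were higher against 20.8% of all tested genes, and 43.8% were lower against 22.1% of all tested genes. Because the members were chosen with earlier results of these data known, these shares are a description only. The groups did not overlap in CPM for 19 of the 32 members, against 52.9% of all tested genes. The median log2 fold change was -0.08 over the members and -0.00 over all tested genes. The largest difference among the members was 1.31-fold, and called members had a median absolute log2 fold change of 0.24, against 0.31 for called genes of the whole table. Summed over all 32, the members took 8916 ± 272 CPM in ORAI2 and 9353 ± 109 CPM in GFP libraries (SD, n = 3 each).

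**Figure D1:**
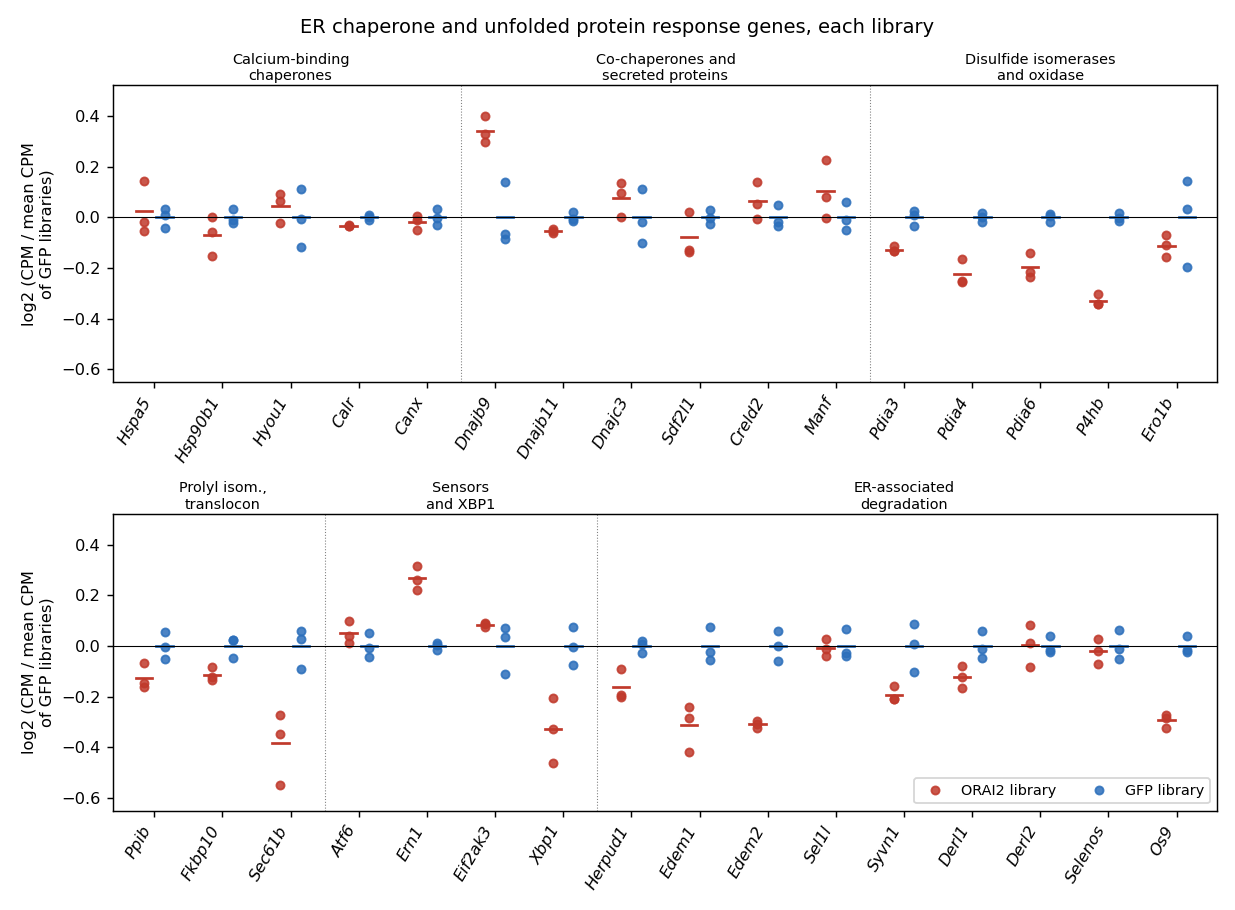
Each point is 1 library of 1 gene, as log2 of its CPM over the mean CPM of the 3 GFP libraries, with ORAI2 libraries left of GFP libraries and a short line at each group mean. P4hb, Pdia4, Pdia6, Edem1, Edem2, Os9, Xbp1 and Sec61b have all 3 ORAI2 points below all 3 GFP points, Dnajb9 and Ern1 have them above, and the calcium-binding chaperones lie near 0.

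The calcium-binding chaperones did not pass the test in any of 5 cases, against 42.9% called among all tested genes. Their intervals leave room for only small differences. Hspa5 (Entrez 14828), the HSP70 chaperone BiP that also holds the sensors inactive, had 1582, 1814 and 1618 CPM in ORAI2 and 1594, 1677 and 1653 CPM in GFP libraries. The GFP values lie inside the range of the ORAI2 values, of which the second is the highest. The log2 fold change of Hspa5 was 0.02 (95% interval -0.08 to 0.13; adjusted p = 0.734), and without ORAI2 library 2 it was -0.03. Hsp90b1 (Entrez 22027), the HSP90 chaperone GRP94, had 1104, 1227 and 1179 CPM in ORAI2 and 1208, 1253 and 1219 CPM in GFP libraries. The groups overlapped, with a log2 fold change of -0.07 (95% interval -0.16 to 0.02; adjusted p = 0.189).

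Calr (Entrez 12317), the lectin chaperone calreticulin, which buffers much of the calcium of the ER, had 965, 967 and 969 CPM in ORAI2 and 991, 996 and 982 CPM in GFP libraries. Although the groups did not overlap, the difference was a log2 fold change of -0.04 and did not pass (95% interval -0.11 to 0.04; adjusted p = 0.401). Canx (Entrez 12330), calnexin, its relative in the ER membrane, had 701, 727 and 719 CPM in ORAI2 and 711, 723 and 742 CPM in GFP libraries, with a log2 fold change of -0.02 (95% interval -0.10 to 0.05; adjusted p = 0.637). Hyou1 (Entrez 12282), a large HSP70 relative that exchanges nucleotide on BiP, had 279, 297 and 303 CPM in ORAI2 and 262, 283 and 307 CPM in GFP libraries, with a log2 fold change of 0.04 (95% interval -0.07 to 0.15; adjusted p = 0.540). For each of these 5 genes the interval lay between -0.16 and 0.15 on the log2 scale. Their sum was 4817 ± 202 CPM in ORAI2 and 4867 ± 88.9 CPM in GFP libraries (SD, n = 3 each). Per kilobase of the longest coding transcript, Hspa5 and Calr were the most abundant members, with 455 and 443 CPM per kilobase in ORAI2 cells, and 447 and 453 CPM per kilobase in GFP cells. Hsp90b1 followed at 414 CPM per kilobase in ORAI2 and 434 CPM per kilobase in GFP cells, and the least abundant member, Ero1b, stood at 3.83 CPM per kilobase in ORAI2 and 4.14 CPM per kilobase in GFP cells.

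**Figure D2:**
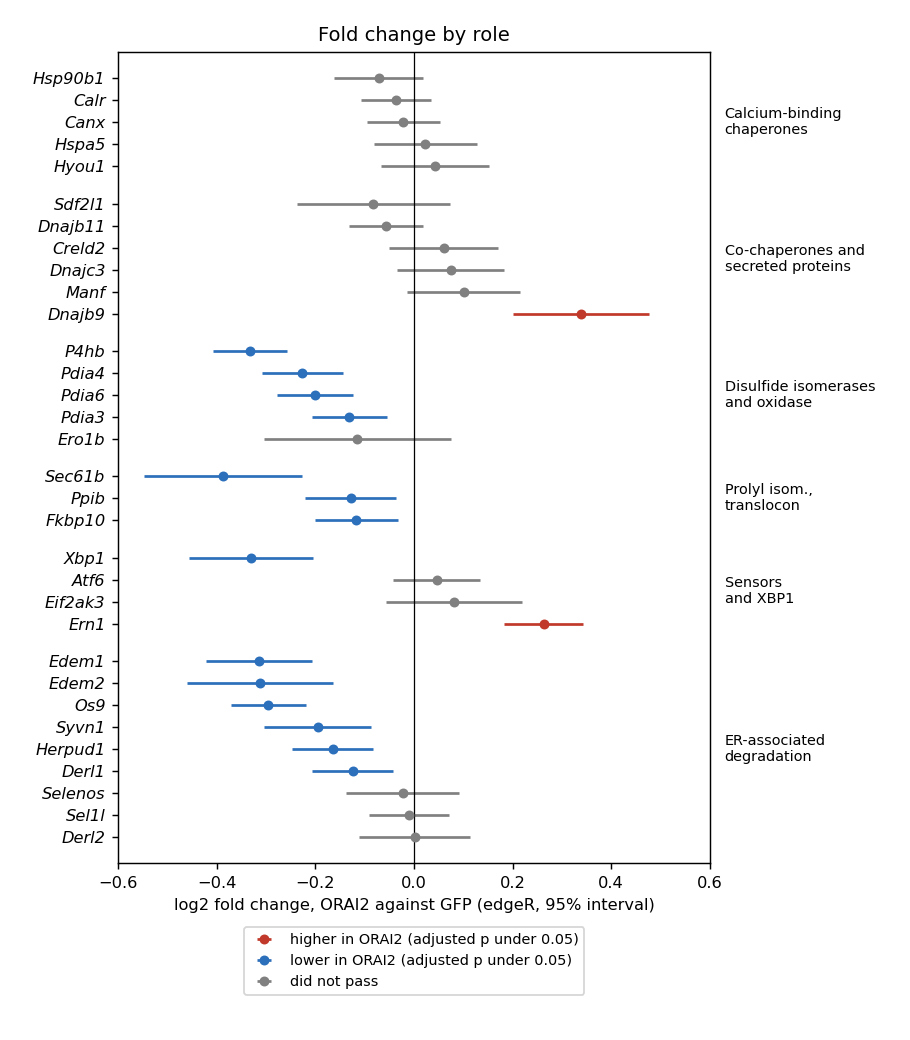
Points are log2 fold changes of ORAI2 against GFP from edgeR with 95% intervals, for the 32 genes ordered by role. Intervals of all 5 calcium-binding chaperones span 0, while 4 of 5 disulfide isomerases and oxidase, 6 of 9 degradation genes and Xbp1 lie below 0, and Dnajb9 and Ern1 lie above it.

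Several of these genes carry the ER stress response element (ERSE), the promoter sequence through which ATF6, with the CCAAT-binding factor NF-Y, and XBP1 raise chaperone genes. The promoters are shown because they sort the members by a sequence feature. The element serves the same unfolded protein response for which members were chosen. The share of members that hold it is therefore not independent of that choice. Promoter windows of 300 bases, 250 before and 50 after the annotated start, came from RefSeq (GRCm38.p6) and were found for 27 of the 32 members. Hyou1, Manf, Fkbp10, Atf6 and Derl1 had no window. The letters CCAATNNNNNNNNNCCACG were searched on both strands. They were found in 39 of 32851 windows (0.119%), or in 37 of 27025 genes with a window (0.137%). Among the 27 members with a window, 9 held them (33.3%). In the lines below the element is in capitals, with 20 bases on either side, read 5′ to 3′ on the strand of the gene. In Calr, Ero1b, Creld2 and the second Hsp90b1 site the element lies on the opposite strand, and so reads as its reverse complement.
Hspa5, chr2:34772005-34772063, plus strand: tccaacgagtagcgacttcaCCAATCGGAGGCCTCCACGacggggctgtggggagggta
Hsp90b1 first site, chr10:86705618-86705676, minus strand: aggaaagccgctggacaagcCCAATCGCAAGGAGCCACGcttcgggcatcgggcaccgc
Hsp90b1 second site, chr10:86705513-86705571, minus strand: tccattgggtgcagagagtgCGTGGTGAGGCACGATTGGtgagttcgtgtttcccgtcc
Calr, chr8:84847055-84847113, minus strand: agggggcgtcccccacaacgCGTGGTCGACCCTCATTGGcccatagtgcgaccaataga
Canx, chr11:50325780-50325838, minus strand: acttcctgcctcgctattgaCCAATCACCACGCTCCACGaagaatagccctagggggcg
Dnajc3, chr14:118937807-118937865, plus strand: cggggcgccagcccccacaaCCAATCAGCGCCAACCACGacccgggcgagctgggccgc
Creld2, chr15:88819500-88819558, plus strand: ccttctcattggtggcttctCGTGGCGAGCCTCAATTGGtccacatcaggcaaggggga
Pdia6, chr12:17266471-17266529, plus strand: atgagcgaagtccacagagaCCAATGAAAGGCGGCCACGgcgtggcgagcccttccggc
Ero1b, chr13:12565662-12565720, plus strand: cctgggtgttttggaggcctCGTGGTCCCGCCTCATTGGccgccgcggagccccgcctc
Syvn1, chr19:6046512-6046570, plus strand: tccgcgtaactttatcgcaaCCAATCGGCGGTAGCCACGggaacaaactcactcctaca

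Of the 9 members with an ERSE, Pdia6 and Syvn1 were lower in ORAI2 cells, 7 did not pass and none was higher, with log2 fold changes between -0.20 and 0.07. Of the 18 members whose window held no exact match to the ERSE letters, 2 were higher, 10 were lower and 6 did not pass. Over all tested genes 20.8% were higher and 22.1% lower, so the count of 2 lower among 9 was at the background. The difference between members with and without a match was not tested. Over all genes with a window, 37 held the element, 17 of those were tested, and 2 were higher and 3 lower. The elements began between 44 bases (Syvn1) and 212 bases (Hsp90b1) before the annotated start. A second form, ERSE-II, with the letters ATTGGNCCACG, was found in 12 windows (0.0365%), among them Herpud1 and Dnajb11. In Dnajb11, which did not pass (log2 fold change -0.06), the match begins after the annotated start and is not shown. Herpud1, lower in ORAI2 cells, is shown with ERSE-II in capitals.
Herpud1, chr8:94386357-94386407, plus strand: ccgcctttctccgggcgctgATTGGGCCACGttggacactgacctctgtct

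The XBP1-binding letters TGACGTGG (the unfolded protein response element) were found in 222 windows (0.676%) and in 0 members. All 3 elements hold CCACG on one strand, so their matches can overlap. A match describes letters in this window and not binding of a factor.

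**Figure D3:**
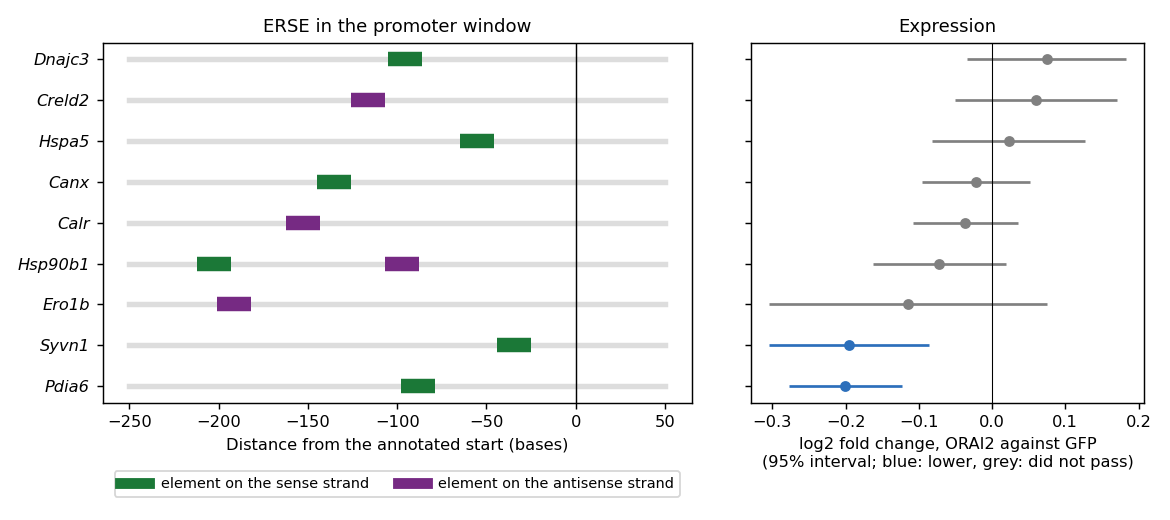
Left, position of each ERSE match in bases from the annotated start for the 9 members that hold one, coloured by strand, and right, the log2 fold change of ORAI2 against GFP with its 95% interval. Matches lie between 44 and 212 bases before the start, and 7 of the 9 intervals span 0, with Pdia6 and Syvn1 below it.

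Among the 6 co-chaperones and secreted ER stress proteins, Dnajb9 rose and 5 did not pass, against 20.8% higher among all tested genes. Dnajb9 (Entrez 27362), the J-domain protein ERdj4 that brings BiP to the IRE1 sensor, had 37.5, 40.3 and 38.3 CPM in ORAI2 and 29.1, 28.8 and 33.6 CPM in GFP libraries. All 3 ORAI2 values exceed all 3 GFP values. Its log2 fold change was 0.34 (SE 0.06; edgeR, adjusted p = 9.66e-04), and the adjusted p ranged between 2.68e-04 and 0.00799 over 14 other ways of processing. Manf (Entrez 74840), a secreted protein that also binds BiP, had 118, 139 and 125 CPM in ORAI2 and 115, 118 and 124 CPM in GFP libraries. The groups overlapped, with a log2 fold change of 0.10 (95% interval -0.01 to 0.22; edgeR, adjusted p = 0.146). Manf passed only without ORAI2 library 1 (adjusted p = 0.0330, in a range of 0.0330 to 0.520). Dnajc3, the J-domain protein p58IPK that inhibits PERK, had a log2 fold change of 0.07 (edgeR, adjusted p = 0.253) and passed only without GFP library 3 (adjusted p = 0.0431, in a range of 0.0431 to 0.658).

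Dnajb11 (Entrez 67838), the J-domain protein ERdj3, had 110, 111 and 111 CPM in ORAI2 and 114, 116 and 114 CPM in GFP libraries. These groups did not overlap, yet the log2 fold change of -0.06 did not pass (edgeR, adjusted p = 0.209). Sdf2l1, which works in a complex with ERdj3, was at a log2 fold change of -0.08 (adjusted p = 0.384), and Creld2, a secreted ER stress protein, one of 0.06 (adjusted p = 0.371). Their sum over the 6 genes was 527 ± 22.4 CPM in ORAI2 and 504 ± 21.5 CPM in GFP libraries (SD, n = 3 each), and these ranges overlapped. A protein-coding gene on the opposite strand, Dcaf1, shares 146 annotated bases with Manf and had up to 1686 counts. The sources used here do not give whether counting used strand, so reads of such pairs cannot be told apart.

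Of the 5 disulfide isomerase and oxidase genes, the 4 isomerases fell in ORAI2 cells and the oxidase Ero1b did not pass, against 22.1% lower among all tested genes. P4hb (Entrez 18453), protein disulfide isomerase itself and also the beta subunit of collagen prolyl 4-hydroxylase, had 665, 665 and 683 CPM in ORAI2 and 853, 842 and 836 CPM in GFP libraries. Every ORAI2 library was below every GFP library by far more than the spread within a group. The log2 fold change of P4hb was -0.33 (SE 0.03), or 1.26-fold lower (edgeR, adjusted p = 8.17e-06). Pdia4 (Entrez 12304), an isomerase with an extra thioredoxin domain, had 113, 113 and 121 CPM in ORAI2 and 133, 137 and 135 CPM in GFP libraries, a log2 fold change of -0.23 (SE 0.04; edgeR, adjusted p = 4.07e-04). Pdia6 (Entrez 71853), an isomerase that attenuates IRE1 and PERK signalling, had 325, 347 and 329 CPM in ORAI2 and 378, 384 and 386 CPM in GFP libraries, a log2 fold change of -0.20 (SE 0.04; edgeR, adjusted p = 6.09e-04).

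Pdia3 (Entrez 14827), ERp57, the isomerase that works with calreticulin and calnexin on glycoproteins, had 601, 609 and 601 CPM in ORAI2 and 671, 663 and 643 CPM in GFP libraries. Its groups did not overlap either, and the log2 fold change of -0.13 (SE 0.04) was the smallest among the isomerases that fell (edgeR, adjusted p = 0.00932). On the deposited TPM values of 2 libraries a group the call of Pdia3 was lost (limma, adjusted p = 0.0612). Its lectin partners Calr and Canx, which lay between -0.04 and -0.02, did not pass. Ero1b (Entrez 67475), an oxidase that reoxidises protein disulfide isomerase, had 15.7, 16.3 and 16.7 CPM in ORAI2 and 15.3, 17.97 and 19.4 CPM in GFP libraries. Here the groups overlapped and the error was the widest of all members, with a log2 fold change of -0.11 (95% interval -0.30 to 0.07; edgeR, adjusted p = 0.315). Summed over the 5 genes, the level was 1740 ± 17.6 CPM in ORAI2 and 2038 ± 16.3 CPM in GFP libraries, with no overlap, while the calcium-binding chaperones gave overlapping sums. The difference between these roles is a description, and no test of it was made. The fibroblast marker sum was lower in the same 3 ORAI2 libraries, and its part in this was not tested.

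Both prolyl isomerases and the translocon subunit were lower, against 22.1% lower among all tested genes. Sec61b (Entrez 66212), the beta subunit of the channel through which new proteins enter the ER, had 21.7, 26.3 and 24.9 CPM in ORAI2 and 29.8, 32.3 and 33.0 CPM in GFP libraries. The groups did not overlap, and the log2 fold change of -0.39 (SE 0.07), or 1.31-fold lower, was the largest of any member (edgeR, adjusted p = 0.00101). Ppib (Entrez 19035), cyclophilin B, which acts on collagen chains, had 161, 171 and 162 CPM in ORAI2 and 187, 179 and 173 CPM in GFP libraries. The highest ORAI2 and lowest GFP libraries of Ppib lay close together. Its log2 fold change was -0.13 (SE 0.04; edgeR, adjusted p = 0.0264), and the call was lost without ORAI2 library 1 (adjusted p = 0.105), ORAI2 library 3 (0.0890), GFP library 1 (0.115) or GFP library 2 (0.0621), in a range of 0.0101 to 0.115 over those 14.

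Fkbp10 (Entrez 14230), FKBP65, an isomerase of collagen whose loss causes brittle bones in humans, had 106, 103 and 102 CPM in ORAI2 and 114, 114 and 109 CPM in GFP libraries. The log2 fold change was -0.12 (SE 0.04; edgeR, adjusted p = 0.0271). This call too was lost, with DESeq2 (adjusted p = 0.0812) and without ORAI2 library 2 (0.0775), ORAI2 library 3 (0.0941), GFP library 1 (0.0946) or GFP library 2 (0.0967), in a range of 0.00988 to 0.0967. Without ORAI2 library 3, GFP library 1 or GFP library 2, Sec61b alone of these 3 genes passed the test, while Ppib and Fkbp10 kept negative log2 fold changes. On the opposite strand Snx22 shares 825 annotated bases with Ppib but had at most 33 counts, and Nt5c3b shares 193 bases with Fkbp10 and had up to 640 counts.

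Of the sensors and XBP1, Ern1 rose, Xbp1 fell, and Atf6 and Eif2ak3 did not pass. Over all tested genes 20.8% were higher and 22.1% lower. Ern1 (Entrez 78943), the kinase and RNase IRE1 alpha, which splices Xbp1 mRNA, had 205, 191 and 197 CPM in ORAI2 and 166, 162 and 164 CPM in GFP libraries. All ORAI2 libraries were above all GFP libraries, with means of 198 ± 6.75 CPM in ORAI2 and 164 ± 1.62 CPM in GFP (SD, n = 3 each). The log2 fold change was 0.26 (SE 0.04; edgeR, adjusted p = 9.78e-05). Xbp1 (Entrez 22433), the transcription factor made from that spliced mRNA, had 96.2, 115 and 106 CPM in ORAI2 and 126, 140 and 132 CPM in GFP libraries. Each ORAI2 library was below each GFP library, with a log2 fold change of -0.33 (SE 0.06), or 1.26-fold lower (edgeR, adjusted p = 5.44e-04). Counts per gene do not separate spliced from unspliced Xbp1 mRNA, so the activity of IRE1 was not measured.

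Atf6 (Entrez 226641), the sensor that is cut in the Golgi to release a transcription factor, had 272, 261 and 256 CPM in ORAI2 and 263, 252 and 246 CPM in GFP libraries. The groups overlapped, with a log2 fold change of 0.05 (95% interval -0.04 to 0.13; edgeR, adjusted p = 0.391). Eif2ak3 (Entrez 13666), the kinase PERK that slows translation, had 25.2, 25.2 and 24.9 CPM in ORAI2 and 22.0, 24.3 and 24.9 CPM in GFP libraries. The ORAI2 values lay just above the highest GFP value, and the log2 fold change was 0.08 (95% interval -0.06 to 0.22; edgeR, adjusted p = 0.334).

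**Figure D4:**
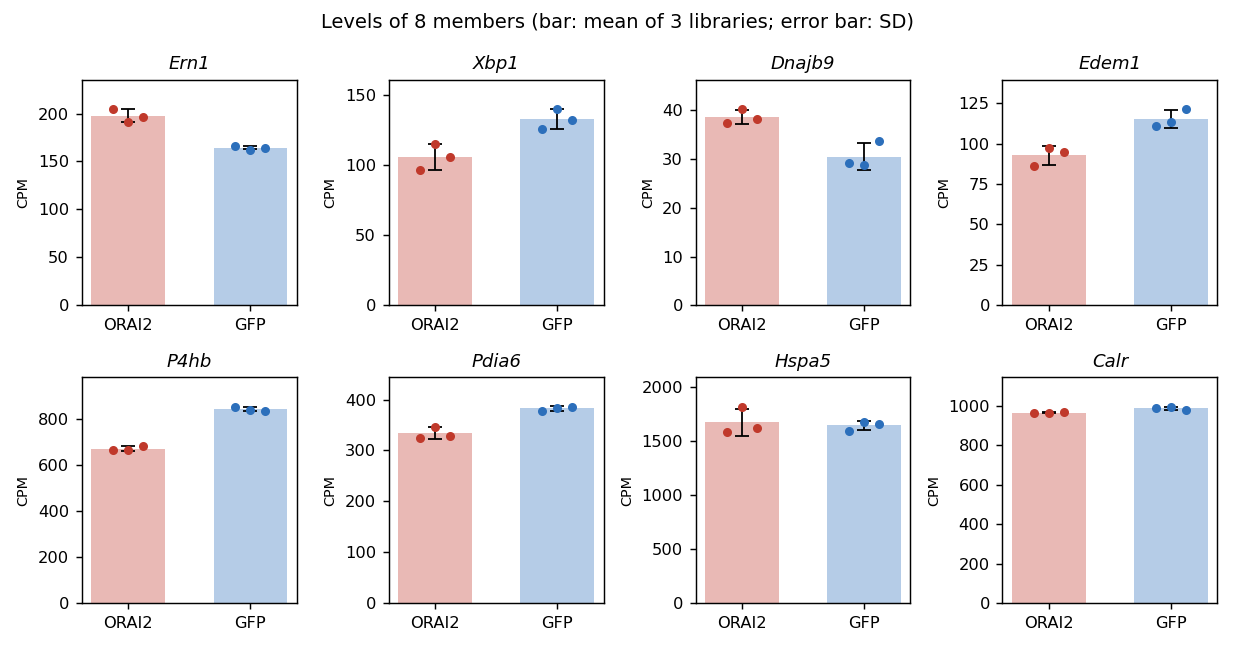
Bars are means of 3 libraries in CPM, error bars are SD and points are single libraries, with ORAI2 left of GFP in each panel and every axis starting at 0. Ern1 and Dnajb9 are higher in ORAI2, Xbp1, Edem1, P4hb and Pdia6 are lower, and Hspa5 and Calr differ by less than 3% in their means.

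Of 9 genes of ER-associated degradation, which recognises misfolded proteins and passes them to the proteasome, 6 fell and 3 did not pass, against 22.1% lower and 20.8% higher among all tested genes. Their roles are those of lectins that mark misfolded glycoproteins, of a ubiquitin ligase complex, and of membrane proteins at the exit. All 3 lectin and mannosidase genes fell. Edem1 (Entrez 192193), which trims mannose from misfolded glycoproteins, had 86.2, 97.5 and 94.7 CPM in ORAI2 and 111, 113 and 121 CPM in GFP libraries, a log2 fold change of -0.31 (SE 0.05; edgeR, adjusted p = 2.41e-04). Edem2 (Entrez 108687), the mannosidase of the first trimming step, had 17.7, 17.5 and 17.3 CPM in ORAI2 and 22.6, 20.8 and 21.7 CPM in GFP libraries, a log2 fold change of -0.31 (SE 0.07; edgeR, adjusted p = 0.00260). Os9 (Entrez 216440), the lectin that reads the trimmed glycans, had 116, 120 and 119 CPM in ORAI2 and 142, 143 and 149 CPM in GFP libraries, a log2 fold change of -0.30 (SE 0.04; edgeR, adjusted p = 2.45e-05). In each of the 3 genes all ORAI2 libraries were below all GFP libraries, and the folds lay between 1.23 and 1.24. Edem2 lost its call on the deposited TPM values of 2 libraries a group (limma, adjusted p = 0.0676).

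In the ligase complex Syvn1 and Herpud1 fell, and Sel1l did not pass. Syvn1 (Entrez 74126), the ubiquitin ligase HRD1, had 57.0, 59.1 and 56.9 CPM in ORAI2 and 61.3, 70.0 and 66.2 CPM in GFP libraries, a log2 fold change of -0.20 (SE 0.05; edgeR, adjusted p = 0.00707). Its partner Sel1l (Entrez 20338), the adaptor that stabilises HRD1, had 222, 233 and 226 CPM in ORAI2 and 224, 222 and 239 CPM in GFP libraries. The groups overlapped for Sel1l, with a log2 fold change of -0.01 (95% interval -0.09 to 0.07; edgeR, adjusted p = 0.849). Herpud1 (Entrez 64209), a scaffold of the same complex, had 161, 174 and 162 CPM in ORAI2 and 182, 188 and 187 CPM in GFP libraries, a log2 fold change of -0.16 (SE 0.04; edgeR, adjusted p = 0.00364). On the opposite strand Mrpl49 shares 91 annotated bases with Syvn1 and had up to 1249 counts, inside the range of 1054 to 1309 counts of Syvn1 itself.

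Of the derlins, membrane proteins that carry substrates out of the ER, Derl1 (Entrez 67819) had 181, 192 and 186 CPM in ORAI2 and 196, 201 and 211 CPM in GFP libraries. The groups did not overlap, with a log2 fold change of -0.12 (SE 0.04; edgeR, adjusted p = 0.0179). The call was lost without ORAI2 library 1 (adjusted p = 0.0922), ORAI2 library 3 (0.0569) or GFP library 3 (0.0584), in a range of 0.00922 to 0.0922. Derl2, which shares 231 annotated bases with Mis12 on the opposite strand, was at a log2 fold change of 0.00 (95% interval -0.11 to 0.11; adjusted p = 0.992). Selenos, a selenoprotein that binds derlins, had one of -0.02 (95% interval -0.14 to 0.09; adjusted p = 0.754). Summed over the 9 genes, the level was 948 ± 30.0 CPM in ORAI2 and 1047 ± 30.9 CPM in GFP libraries (SD, n = 3 each), with no overlap.

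Wider lists of the same machinery, grouped by function, held 100 tested genes, of which 14 were higher, 36 lower and 50 did not pass, again beside 20.8% higher and 22.1% lower over all tested genes. Derl3 and Clgn were too low to test, and Ern2 was not matched. Other disulfide isomerases and oxidases had 5 of 14 lower and 0 higher. Qsox1, a sulfhydryl oxidase of the late secretory pathway, had 120 ± 3.02 CPM in ORAI2 and 181 ± 2.87 CPM in GFP libraries, a log2 fold change of -0.59 (edgeR, adjusted p = 9.95e-08), and Erp29, an inactive relative of the isomerases, one of -0.34. Other prolyl isomerases and collagen chaperones had 7 of 11 lower and 0 higher. P4ha1 and P4ha2 are catalytic subunits that pair with P4hb in collagen prolyl 4-hydroxylase. They had log2 fold changes of -0.46 (edgeR, adjusted p = 7.45e-06) and -0.38 (adjusted p = 1.01e-05), so P4hb and both of these subunits fell. Reticulocalbins and other EF-hand proteins, which bind calcium in the secretory pathway with low affinity, had 5 of 7 lower. Rcn3, reticulocalbin 3, had 16.7 ± 1.09 CPM in ORAI2 and 26.4 ± 1.42 CPM in GFP libraries, a log2 fold change of -0.67 (edgeR, adjusted p = 1.52e-05), and Sdf4 of the Golgi lumen one of -0.21.

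Of the degradation genes beyond the members, 8 of 21 were higher and 2 lower. This and the next lists stand beside 20.8% higher and 22.1% lower over all tested genes. Vcp, the ATPase that pulls proteins out of the membrane, had 503 ± 7.43 CPM in ORAI2 and 453 ± 4.04 CPM in GFP libraries, a log2 fold change of 0.15 (edgeR, adjusted p = 0.00316), and Ube2j1, a ubiquitin-conjugating enzyme of the ER, one of 0.15. Against them Rnf139, a ubiquitin ligase, and Erlec1, a lectin like Os9, had -0.33 and -0.20. Translocon and signal peptidase genes had 3 of 17 higher (Sec61a2 at 0.26, an alpha subunit with a close paralog, and Srprb of the signal recognition particle receptor at 0.17 among them) and 6 lower, with Ssr4 of the translocon-associated complex at -0.21 and Spcs3 of signal peptidase at -0.22. N-glycosylation genes had 1 of 16 higher, Uggt2, a glucosyltransferase relative of the folding sensor UGGT1, at 0.29, and 5 lower, with the oligosaccharyltransferase subunits Tusc3 at -0.51 and Stt3b at -0.16. Vcp, Ube2j1, Sec61a2, Srprb and Uggt2 lost their calls on the deposited TPM values of 2 libraries a group (limma, adjusted p between 0.0723 and 0.150).

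Other regulators of the sensor branches had 2 of 14 higher and 6 lower, beside 20.8% higher and 22.1% lower over all tested genes. Creb3l1, OASIS, a transcription factor of the ER membrane that drives collagen I in mouse bone, had the largest difference of any gene in these lists. Its level was 5.01, 5.56 and 5.40 CPM in ORAI2 and 13.4, 14.9 and 14.0 CPM in GFP libraries, with all ORAI2 libraries below all GFP libraries. The log2 fold change of Creb3l1 was -1.41 (SE 0.09; edgeR, adjusted p = 2.04e-07). Its relative Creb3l2, known from mouse cartilage, had 19.6 ± 1.01 CPM in ORAI2 and 28.9 ± 1.69 CPM in GFP libraries, a log2 fold change of -0.56 (SE 0.07; edgeR, adjusted p = 2.76e-05). Eif2s1, the translation factor subunit that PERK phosphorylates, was higher at 0.27. Dnajc1 was higher at 0.13 with an adjusted p of 0.0492, and lost that call in 9 of the same 14, in a range of 0.0415 to 0.194. Of 10 genes of the PERK, ATF4 and CHOP branch, targets and factors together, 3 were higher and 4 lower, beside the same shares over all tested genes. Among those higher were Chac1, which degrades glutathione, at 0.63 and the stress protein Sesn2 at 0.34 on the log2 scale. Among those lower were the stress regulator Nupr1 at -0.40 and the pseudokinase Trib3 at -0.23. Of the factors themselves, Atf4 was higher at 0.09 (edgeR, adjusted p = 0.0426), and Ddit3, the gene of CHOP, did not pass at 0.06.

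**Figure D5:**
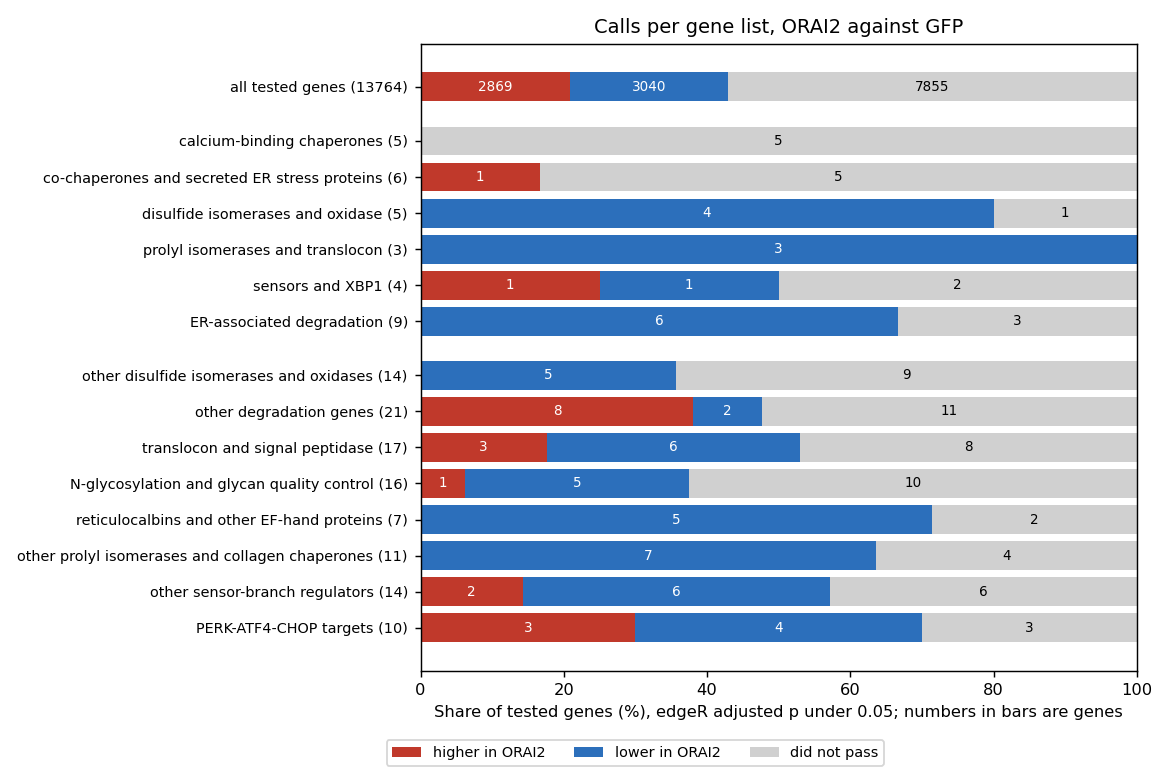
Bars give the share of tested genes in each list, in percent, that were higher, lower or did not pass at an edgeR adjusted p under 0.05, with gene counts in the bars and all 13764 tested genes on top. The calcium-binding chaperones have no call, disulfide isomerases and both lists of prolyl isomerases have calls in the lower direction only, and the other degradation genes have 8 higher and 2 lower.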

How the data were processed

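Oligo(dT) beads selected mRNA from TRIzol extracts before random-primed cDNA synthesis, per the labels' protocols. The submitters' processing notes name HISAT2 2.0.4 and Salmon 1.4.0 with build GRCm39; what each did, which annotation was used and whether strand counted were not stated there. The deposited table holds, per the file headers, whole-number counts and TPM values per gene and library. The deposited TPM columns numbered 3 did not follow the counts (Orai2 at 36.3 TPM in ORAI2 library 3, against 1430 and 1241 in the others), so TPM served only as an alternative chosen after seeing the data.

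Entrez numbers were matched to symbols in a RefSeq table of GRCm38.p6 (25631 of 26532, 96.6%). Transcript lengths and overlaps came from GENCODE annotation of GRCm38. The counts were tested with the quasi-likelihood F-test of edgeR 4.0.16 (R 4.3.3) on all 6 libraries, with TMM normalisation, a filterByExpr minimum count of 10 and Benjamini-Hochberg adjustment over 13764 genes. The test was tried on simulated data first. SEs came from the F statistic, and intervals are 95%. CPM values carry no TMM scaling. Within groups the chi-square per gene between libraries was 2.54 to 4.50, so no library was a copy of another. Per-sample columns not used numbered 0. With 3 libraries a group, no permutation test can go below 0.1.

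The members and lists were chosen with earlier results of these data known. Named genes are all 32 members, Orai2, up to 2 called genes per direction with the smallest p from each wider list, and the called markers; Thy1, Nt5e, Krt18 and markers with hardly any count were named after their values were seen. Alternatives were other normalisations, filters, DESeq2 1.42.0, limma 3.58.1 (voom), a replicate block and leaving out each library.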

Additional observations from a re-analysis of the deposited data

How the results depend on the processing

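Of the 16 members called, 13 kept their call and direction under all 14 alternatives listed with the methods, the exceptions being Ppib, Fkbp10 and Derl1. Of the 16 not called, 14 were called under none of these, the exceptions being Manf and Dnajc3. Leaving out 1 library left between 2354 and 2734 genes higher and between 2568 and 2927 lower, with 2 to 3 members higher and 11 to 13 lower. DESeq2 gave 2379 genes higher and 2446 lower, with 2 members higher and 13 lower. A further alternative chosen after seeing the data, limma on log2(TPM + 1) of the deposited TPM columns numbered 1 and 2 (2 libraries a group), gave 1232 genes higher and 1966 lower, with 2 members higher and 9 lower; Pdia3 (adjusted p = 0.0612), Edem2 (0.0676), Ppib (0.155), Fkbp10 (0.0679) and Derl1 (0.0663) lost their call in this smaller set, as did Vcp (0.0774), Ube2j1 (0.150), Sec61a2 (0.0952), Srprb (0.0723) and Uggt2 (0.126) of the wider lists. Sign changes concerned only members near 0 that did not pass. With 1 library left out, the log2 fold change ranged from -0.0336 to 0.0658 for Hspa5, from -0.0076 to 0.0947 for Hyou1, from -0.0323 to 0.0162 for Sel1l, from -0.0433 to 0.0065 for Selenos and from -0.0334 to 0.0486 for Derl2. On TPM Hyou1 was at -0.0013 and Derl2 at -0.0439, and Derl2 was also at -0.0196 under upper-quartile factors, -0.0002 with no filter, -0.0017 with a filter at 5 CPM and -0.0004 with voom. The cause was not tested. Upper-quartile factors moved the median of all genes by -0.021. The replicate numbers are shared by the groups, but the correlations of same-numbered libraries' deviations were 0.136, 0.073 and 0.126, so the numbers were not taken to pair them; every library correlated best with its own number, which is a hint from the data and not from the design. With the replicate number as a block, 3048 genes were higher and 3198 lower, and the members stayed at 2 higher and 14 lower. Lowest counts of 289 (Ero1b) limit the error of the members, with an SE of 0.09 at most.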
